A study of Mus musculus with 12 samples.

Results

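The genotype by surgery interaction asks which cardiac transcripts answered a myocardial infarction (MI) differently when cardiomyocytes lacked miR-150. It was taken for each transcript as the MI minus sham difference in miR-150 cKO hearts less the same difference in miR-150 fl/fl hearts, on the log2 scale. A positive value therefore means a higher response in cKO hearts, and a negative value a lower one. All 12 arrays of the series entered it, and 54232 of the 60819 probes analysed were tested, a probe being kept when at least 3 arrays read it well above background.

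The arrays came from left ventricles of C57BL/6J mice, 3 mice in each of 4 groups, collected 4 weeks after a sham operation or after permanent ligation of the left anterior descending coronary artery. The miR-150 fl/fl mice carried miR-150 alleles flanked by loxP sites and no Cre, and the miR-150 cKO mice carried the same alleles with a Cre transgene driven by the αMHC promoter, which is active in cardiomyocytes. No group carried Cre with intact miR-150, so the deletion and Cre itself cannot be told apart here. Each group held 1 male and 2 females. Age at harvest was 13, 14 and 14 weeks in sham miR-150 fl/fl, 14 weeks in all MI miR-150 fl/fl, 14, 15 and 15 weeks in sham miR-150 cKO and 15 weeks in all MI miR-150 cKO mice, so age moved with genotype.

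After an infarction the surviving ventricle is remodelled. Fibroblasts lay down matrix, leukocytes clear the injured tissue, and stressed cardiomyocytes return to a fetal pattern that includes the natriuretic peptide genes Nppa and Nppb. MicroRNAs such as miR-150 pair through a short seed with messenger RNAs and lower their level or translation. An interaction is a separate question from either main effect: a gene can be higher in cKO hearts and higher after MI and still have an interaction of 0, when the steps add up.

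The deleted locus gives a pair of mature arms. The 3p arm, from RefSeq on GRCm38.p6 at chr7:45121798-45121819 on the plus strand, is shown because the locus defines the genotype, and its seed (bases 2 to 8) is in capitals. It is not the arm the study calls miR-150, which is the 5p arm and is not shown here. No probe was named for the 3p arm.
mmu-miR-150-3p: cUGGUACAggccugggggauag

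The 250 bases before the RefSeq start are shown for 3 genes described below: Nppb and its chromosome 4 neighbour Nppa, which encode the natriuretic peptides, and Pdk4, which encodes a kinase that restrains glucose oxidation. They lie on GRCm38.p6 at chr4:147985650-147985899 (plus strand), chr4:148000472-148000721 (plus strand) and chr6:5496279-5496528 (minus strand). Capitals mark matches, on either strand, to CATTCC (the M-CAT motif), GTAAACA (forkhead), TGANTCA (AP-1) or TATAAA (the TATA box).
Nppb: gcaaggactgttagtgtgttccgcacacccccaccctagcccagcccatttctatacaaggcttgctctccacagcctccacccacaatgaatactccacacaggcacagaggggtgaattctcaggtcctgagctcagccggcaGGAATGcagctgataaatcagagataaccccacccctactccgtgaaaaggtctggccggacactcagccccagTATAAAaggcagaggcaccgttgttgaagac
Nppa: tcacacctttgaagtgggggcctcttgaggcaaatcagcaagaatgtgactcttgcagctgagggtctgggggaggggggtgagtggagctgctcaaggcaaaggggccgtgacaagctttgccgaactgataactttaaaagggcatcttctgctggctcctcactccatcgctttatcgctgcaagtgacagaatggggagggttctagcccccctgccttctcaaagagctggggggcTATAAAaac
Pdk4: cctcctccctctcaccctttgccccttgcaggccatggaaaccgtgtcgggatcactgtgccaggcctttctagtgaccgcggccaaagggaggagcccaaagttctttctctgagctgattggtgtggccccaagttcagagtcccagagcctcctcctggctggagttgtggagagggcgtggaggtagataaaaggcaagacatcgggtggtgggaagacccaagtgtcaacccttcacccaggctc
Both natriuretic peptide promoters held TATAAA, found in 12.4% of 32851 promoters of this length, and Nppb alone of the 3 held the M-CAT letters, found in 12.6%. None held the forkhead letters (3.17%) or the AP-1 letters (6.75%). These matches describe the letters in the window and nothing about binding.

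No transcript had an interaction with an adjusted p under 0.05 (limma with Benjamini-Hochberg adjustment, 0 of 54232, 0%), and the lowest adjusted p was 0.189. At an unadjusted p under 0.05 there were 7285 transcripts. With the limits used below, a difference between the responses of at least 1.5-fold and an unadjusted limma p under 0.05, 2386 transcripts were higher (4.40% of those tested) and 1334 were lower (2.46%). The median interaction over all transcripts was 0.05. Higher transcripts made up 64.1% of the 3720 past the limits. The share was 51.2% after quantile normalization and 51.9% in the authors' own values. It was 48.7% after normexp background correction with quantile normalization, and 38.8% with slide and row as blocks on unchanged scaling. The excess of higher over lower calls thus differed with the scaling, with the background correction and with slide and row in the fit. Every call by the limits in this text is thus unadjusted, and "past the limits" means no more than that.

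The arrays fell into 2 sets by the scan date in their headers, taken here as 2 slides, and the position field gave row and column. One held all MI cKO arrays and replicate 3 of MI fl/fl, and the other held all sham arrays and replicates 1 and 2 of MI fl/fl. Row 2 held only sham cKO replicates 2 and 3 and MI fl/fl replicates 1 and 2, and every other array lay in row 1. Row 2 thus held arrays only of the groups that the interaction subtracts, so row and interaction are largely confounded. No slide held all 4 groups, so an interaction within a slide could not be had. With slide as a block, 1481 transcripts were higher, 1054 lower and 22 had an adjusted p under 0.05, and that estimate rests on a single MI fl/fl array for the MI part. Slide as a block kept 1571 of the 3720 calls (42.2%), and slide and row as blocks kept 970 (26.1%), the fewest of all settings. The share of probes well above background ran from 74.1% to 90.3%. The lowest values were those of the row 2 arrays, sham cKO replicates 2 and 3 (74.1% and 76.1%) and MI fl/fl replicates 1 and 2 (81.5% and 83%). Among the 2386 higher transcripts, 66.5% and 69.3% were well above background on sham cKO replicates 2 and 3. On the MI cKO arrays the share was 98.4% to 99.3%. The part of brightness in those calls was not tested. The lower transcripts showed less of this, with 90.8% of them well above background on all 12 arrays against 65.3% of the higher ones.

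The most frequent form of a call was a change in cKO hearts alone. All MI cKO arrays lay on a different slide from all sham cKO arrays, so that change cannot be told apart from slide. The MI fl/fl arrays lay on both slides. Of the 2386 higher transcripts, 1260 (52.8%) had a mean MI minus sham change beyond 1.5-fold upward in cKO hearts and none beyond 1.5-fold in fl/fl hearts, 115 were down in fl/fl and up in cKO, and 100 were down in fl/fl only. Of the 1334 lower transcripts, 633 (47.5%) were down in cKO only, 118 up in fl/fl only, and 47 up in fl/fl and down in cKO. The rest mostly stayed within 1.5-fold in both genotypes (910 higher and 532 lower) and passed through the sum of smaller opposite changes. A complete reversal, with MI fl/fl arrays all below sham fl/fl and MI cKO arrays all above sham cKO, was seen for 339 transcripts (0.625%), of which 209 were past the limits. The opposite reversal was seen for 196 (0.361%), of which 93 were past the limits.

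**Figure D1:**
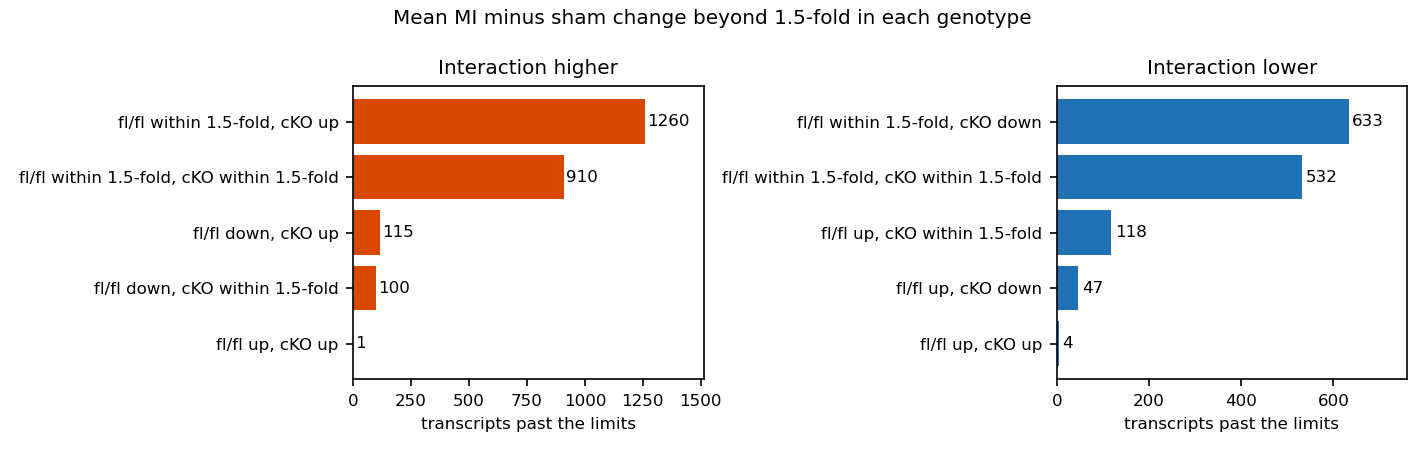
Number of transcripts past the limits (horizontal axis) by whether the group mean moved more than 1.5-fold after MI in fl/fl and in cKO hearts; left, interaction higher, right, interaction lower. The longest bars are changes in cKO hearts only, 1260 upward and 633 downward. In cKO hearts MI and sham arrays lay on different slides, so these changes cannot be told apart from slide.

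Viewed across genotype, the largest class in each direction stayed within 1.5-fold between cKO and fl/fl hearts both at sham and after MI (1085 higher, 45.5%, and 824 lower, 61.8%). Of the remaining higher transcripts, 660 were more than 1.5-fold higher in cKO than in fl/fl hearts after MI with little difference in sham, 496 were more than 1.5-fold lower in sham cKO than in sham fl/fl hearts with little difference after MI, and 142 did both. Of the remaining lower ones, 374 were lower in cKO hearts after MI only, 101 were higher in sham cKO hearts only, and 33 did both. The median higher transcript was 0.39 (log2) lower in cKO than fl/fl hearts at sham and 0.47 higher after MI.

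The array files carry no gene symbols. A key built from the study's lists of changed transcripts named 892 of those tested (1.64%), and 15 housekeeping probes were named by their accession. Of the 892, 238 (26.7%) were past the limits upward and 180 (20.2%) downward, and counts in every gene list below are read beside these shares. These shares say nothing about the interaction, because the lists were chosen on the same arrays and their choice fixes the sign: transcripts taken from the list of those higher in MI cKO than in MI fl/fl hearts counted 198 higher and 0 lower, those higher in sham cKO than sham fl/fl 0 higher and 24 lower, and those higher in MI fl/fl than sham fl/fl 0 higher and 32 lower. No list of the MI response in cKO hearts was used, so transcripts that moved in cKO hearts only may be without a name. All values of named genes below are thus descriptions of these arrays. Of the housekeeping probes, named without regard to values, 0 of 15 were past the limits upward and 2 downward, with a median interaction of -0.15. Those 2 were Rpl13a (-0.87 ± 0.26, SE) and Ppia (-0.85 ± 0.38), which encode a ribosomal protein and cyclophilin A.

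**Figure D2:**
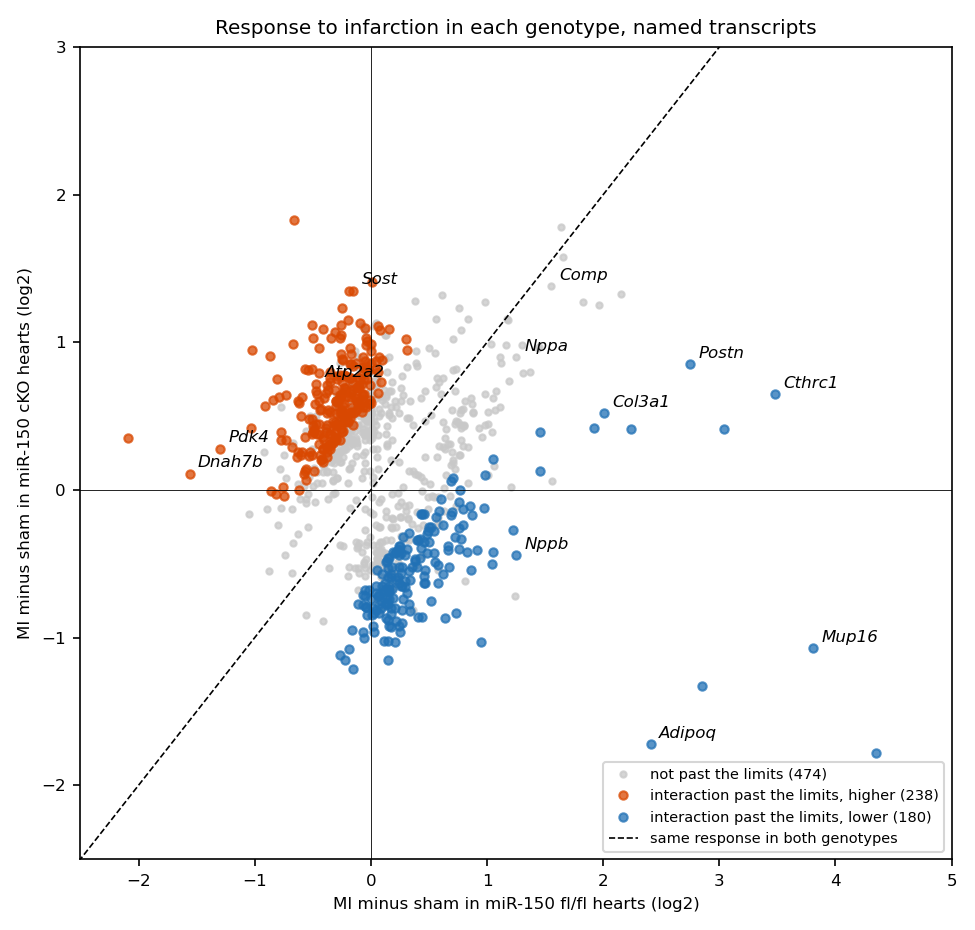
MI minus sham difference (log2) in miR-150 fl/fl hearts (horizontal) against miR-150 cKO hearts (vertical) for the 892 named transcripts; the dashed line marks an equal response, orange points are the 238 with an interaction past the limits upward and blue points the 180 downward. Nppa and Comp lie near the line, Nppb, Postn and Cthrc1 to its right, and Pdk4 and Atp2a2 to its left.

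Among cardiac stress genes, Nppb, which encodes B-type natriuretic peptide, had a response that was present in fl/fl hearts only. Values here and below are log2 signals less the array's 75th percentile. Nppb read 2.99, 3.65 and 3.65 in sham fl/fl hearts and 4.31, 4.61 and 5.11 after MI, and in cKO hearts it read 5.33, 5.80 and 6.13 at sham and 4.89, 5.11 and 5.93 after MI. MI arrays were thus all above sham arrays in fl/fl hearts, while in cKO hearts the groups overlapped at the high level that sham cKO hearts already had. The MI difference was 1.25 (2.38-fold) in fl/fl and -0.44 in cKO, an interaction of -1.69 ± 0.45 (SE; 95% interval -2.70 to -0.69; limma adjusted p = 0.223). It stayed past the limits under every alternative, from -2.0 to -1.47 when single arrays were left out.

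Nppa, next to Nppb on chromosome 4 and encoding atrial natriuretic peptide, was also higher in cKO hearts, in sham and after MI alike. It read 3.36, 3.89 and 4.15 in sham fl/fl, 4.83, 5.04 and 5.27 in MI fl/fl, 5.02, 5.82 and 6.55 in sham cKO and 6.40, 6.55 and 7.13 in MI cKO hearts. Its MI difference was 1.25 in fl/fl and 0.90 in cKO, and the interaction was -0.35 ± 0.50 with a 95% interval of -1.46 to 0.76. That interval holds 0 and also a 2-fold smaller response in cKO hearts, and the difference between Nppa and Nppb was not tested.

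Sprr1a, a small proline-rich protein that the study followed as a miR-150 target, was likewise not past the limits. Its values were -1.40, -1.40 and -1.04 in sham fl/fl, -0.15, -0.13 and 0.33 in MI fl/fl, -0.16, 0.82 and 1.45 in sham cKO and 1.13, 1.5 and 2.42 in MI cKO hearts. MI fl/fl hearts lay above sham fl/fl hearts without overlap, and MI cKO hearts overlapped sham cKO hearts. The interaction was -0.32 ± 0.57 (95% interval -1.58 to 0.94), with MI differences of 1.30 in fl/fl and 0.98 in cKO. Comp, a cartilage matrix protein, had -0.17 ± 0.56 (-1.41 to 1.07). The signs of Nppa, Sprr1a and Comp each turned in some alternatives, all within their intervals. With slide and row as blocks Sprr1a was at -1.38 and Comp at -1.35, neither past the limits.

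Other genes of the stress list had intervals that hold 0. Myh7, the slow myosin heavy chain, had 1.0 ± 0.79 (-0.74 to 2.75), Acta1, skeletal α-actin, 0.60 ± 0.90 (-1.40 to 2.6), and Ctgf (now Ccn2), a matricellular growth factor, 0.87 ± 0.51 (-0.26 to 1.99). Myh7 passed the limits without sham fl/fl replicate 1 (1.59), whose value of 3.83 was the lowest of all arrays, and Ctgf without sham fl/fl replicate 3 (1.18). Ankrd1, a stress-responsive ankyrin repeat protein, had -0.24. Over the 14 named transcripts of the stress list, 3 were higher, 2 lower and 9 not past the limits, with a median of 0.48. Gdf15, a secreted stress cytokine, was among the higher (1.04 ± 0.34) and was not past the limits with slide as a block (0.75).

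A few matrix genes had a larger MI difference in fl/fl than in cKO hearts. Postn, which encodes periostin of activated fibroblasts, read -1.88, -0.99 and -0.43 in sham fl/fl, 1.39, 1.64 and 1.91 in MI fl/fl, 0.41, 1.94 and 2.24 in sham cKO and 1.98, 2.32 and 2.84 in MI cKO hearts. Sham fl/fl was below all other groups, and the remaining 3 groups were close together. The MI difference was 2.75 (6.71-fold) in fl/fl and 0.85 (1.80-fold) in cKO, giving -1.89 ± 0.68 (95% interval -3.39 to -0.39; limma adjusted p = 0.297). Postn was past the limits under every alternative, at -2.16 with slide as a block and -2.87 with slide and row.

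Cthrc1, a collagen triple helix protein of activated fibroblasts, and Col3a1, type III collagen, did likewise. Cthrc1 was at -4.42 on average in sham fl/fl hearts, where it was well above background on 1 of 3 arrays, and at -0.94, -1.94 and -1.29 in MI fl/fl, sham cKO and MI cKO, for an interaction of -2.83 ± 0.93. Col3a1 read 1.24, 2.78 and 3.13 in sham fl/fl, 4.31, 4.33 and 4.53 in MI fl/fl, 3.57, 3.78 and 4.20 in sham cKO and 4.05, 4.20 and 4.84 in MI cKO hearts, for -1.49 ± 0.59. The Col3a1 call ended with slide as a block (-1.43), and also without MI cKO replicate 1 or 3, sham cKO replicate 1 or MI fl/fl replicate 2. Pamr1, a secreted peptidase-like protein of the matrix list, had -1.5 ± 0.53, and -0.71 after normexp correction.

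Collagens as a list did not follow Col3a1 past the limits. Of 14 named transcripts 0 were higher, 1 lower and 13 neither, with a median of -0.31, and Col1a1, type I collagen, had 0.28 ± 0.43 (-0.67 to 1.24). Of 33 matrix glycoprotein and matricellular transcripts, 3 were higher and 5 lower, with a median of -0.07. Counts in both lists were below the shares among all named transcripts, 26.7% higher and 20.2% lower. Only 5 of the 14 and 11 of the 33 came from the lists of the MI genotype difference. The choice of source list fixes the sign of a call, so these counts say little about the interaction. The lower ones of the matrix list were Cthrc1, Postn, Pamr1, Lrrc17 and Dpt. Its higher ones were Crtac1 (1.09) and the cell surface proteoglycans Gpc1 (0.94) and Gpc4 (0.92). In bulk tissue, fewer cells of a type and less RNA per cell cannot be told apart. The summed linear signal of the 6 named fibroblast markers, relative to the array's 75th percentile, was 16.3 to 34.2 in sham fl/fl, 43.6 to 55.7 in sham cKO, 63.8 to 69.7 in MI fl/fl and 50.8 to 87.0 in MI cKO hearts. The same genes were thus part of this sum, and the part of fibroblast number in the matrix values was not tested.

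**Figure D3:**
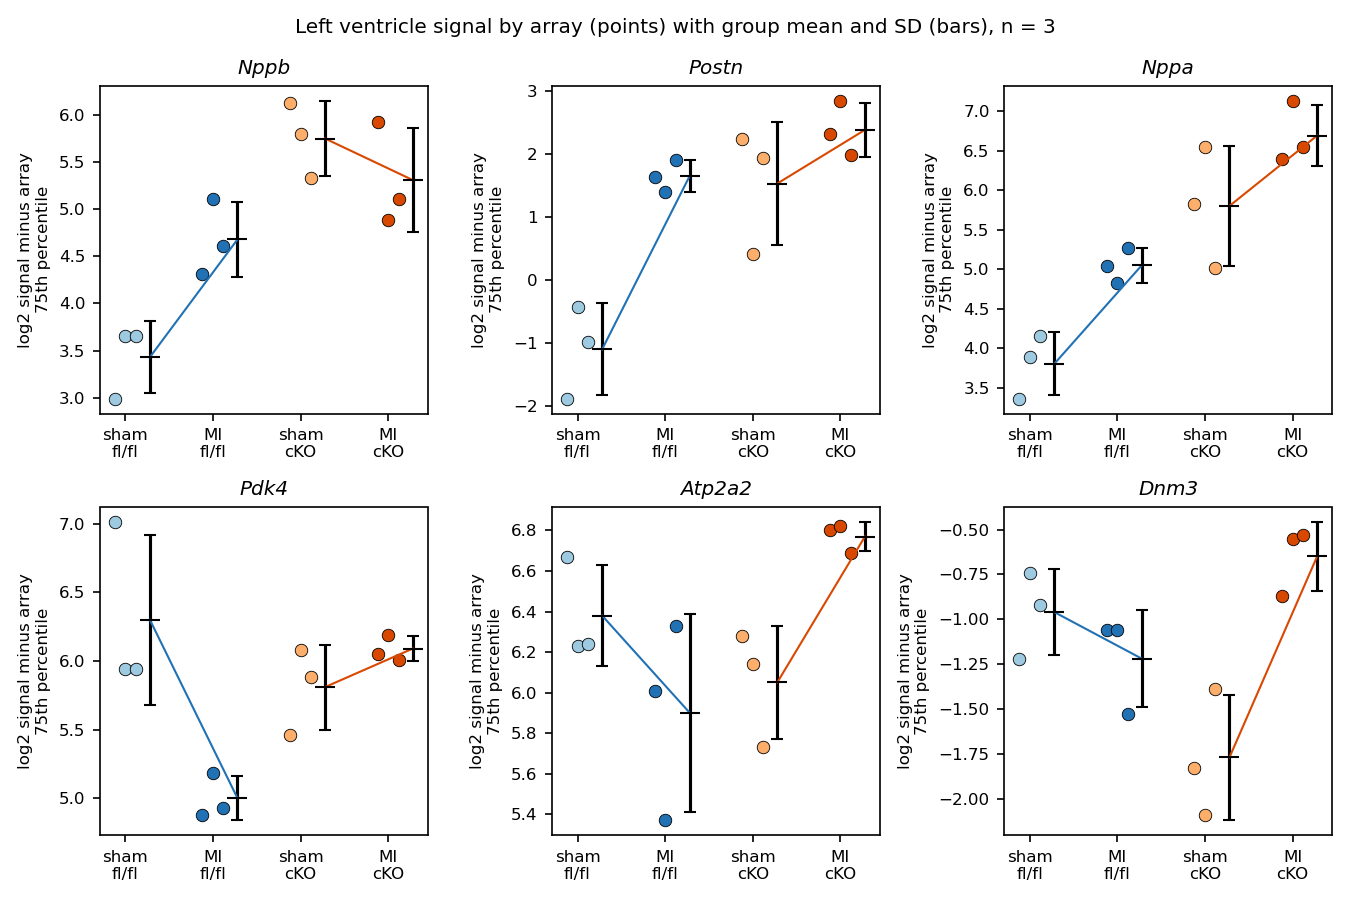
Log2 signal less the array's 75th percentile (vertical) for 6 genes in the 4 groups (horizontal); points are arrays, bars the group mean and SD of 3 arrays, lines join sham to MI within a genotype. Nppb and Postn rise steeply in fl/fl hearts and little or not in cKO hearts, Nppa runs nearly parallel, and Pdk4, Atp2a2 and Dnm3 go down in fl/fl hearts and up in cKO hearts.

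The positive side held genes that were lower after MI in fl/fl hearts and not in cKO hearts. Pdk4 read 5.94, 5.94 and 7.01 in sham fl/fl, 4.88, 4.93 and 5.18 in MI fl/fl, 5.46, 5.88 and 6.08 in sham cKO and 6.01, 6.05 and 6.19 in MI cKO hearts. MI fl/fl arrays lay below all others. The MI difference was -1.30 (2.46-fold lower) in fl/fl and 0.28 in cKO, an interaction of 1.57 ± 0.37 (95% interval 0.74 to 2.41; limma adjusted p = 0.204), and it was past the limits under every alternative.

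Atp2a2, the calcium pump SERCA2 that refills the sarcoplasmic reticulum, read 6.23, 6.24 and 6.67 in sham fl/fl, 5.37, 6.01 and 6.33 in MI fl/fl, 5.73, 6.14 and 6.28 in sham cKO and 6.69, 6.80 and 6.82 in MI cKO hearts. MI cKO arrays were above every other array, while the other 3 groups overlapped. The interaction was 1.19 ± 0.33 (0.46 to 1.92), and it fell to 0.77 with slide as a block and 0.54 with slide and row, neither past the limits. Nkx2-5, a cardiac transcription factor, had a like form (1.05 ± 0.28), with MI cKO values of 4.95, 4.96 and 5.35 above all other arrays, the highest of which was 4.75. Both are among the 8 named cardiomyocyte marker transcripts, whose signals were summed as for fibroblasts. Their sum was 276 to 309 in MI cKO and 162 to 221 in sham cKO hearts. In fl/fl hearts it was 146 to 233 after MI and 215 to 243 at sham. Of the 8, 4 were higher, 1 lower and 3 neither, namely Tnnt2 (-0.26 and -0.21) and Tcap (-0.46). The part of cardiomyocyte content in these values was not tested.

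In a further form, transcripts were lowest in sham cKO hearts and back at or above the sham fl/fl level in MI cKO hearts. Dnm3, a dynamin, read -1.22, -0.92 and -0.74 in sham fl/fl, -1.53, -1.06 and -1.06 in MI fl/fl, -2.09, -1.83 and -1.39 in sham cKO and -0.87, -0.55 and -0.53 in MI cKO hearts, for 1.38 ± 0.29. Its MI cKO arrays lay above all sham cKO arrays, and MI fl/fl arrays overlapped sham fl/fl arrays. Dido1, a chromatin reader (1.38 ± 0.27), and Pde4dip, a scaffold of phosphodiesterase and centrosome (1.39 ± 0.32), were alike, with MI differences of -0.34 and -0.57 in fl/fl and 1.03 and 0.82 in cKO. All of them kept their calls under every alternative, and their interactions with slide as a block were larger (1.69, 1.61 and 1.83).

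Dnah7b, an axonemal dynein heavy chain, had the highest value by the rule for named genes (1.67 ± 0.34), in another form: sham fl/fl hearts were at -1.87, -1.78 and -1.75, and all other groups between -3.92 and -2.83. It was therefore high in 1 of the 4 groups only. Its value was 0.76 after normexp correction and 0.97 with slide and row as blocks, so its rank depended on the processing. Gm11938 (1.54 ± 0.63), Sost, the Wnt inhibitor sclerostin (1.5 ± 0.62), and Rnd1, a small GTPase (1.40 ± 0.55), were high in MI cKO hearts. Sost, for example, read 2.44, 2.62 and 3.5 in MI cKO and at most 2.24 elsewhere. For these 3 the value fell to 0.58, 0.74 and 0.68 with slide as a block, no longer past the limits, and the MI fl/fl array on the slide of MI cKO was the highest of its group each time. Resp18, an endocrine secretory protein, had 1.48 ± 0.43, and was not past the limits with array weights (0.69) or gene-by-gene weights (0.92).

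Of the 20 named by rule, 13 were past the limits with slide as a block, 12 with slide and row, and 16 whichever array was left out. Gm11938, Sost and Ces1f lost the call without any of several arrays, and Rnd1 without MI cKO replicate 3, sham cKO replicate 1, MI fl/fl replicate 2 or sham fl/fl replicate 2. Beyond Gm11938, Sost and Rnd1, the calls of Pamr1 (-1.44), Ces1f (-1.38), Mup16 (-3.74) and Mup19 (-3.18) ended with slide as a block. Outside the 20, so did those of Lyz2 (-0.87), Rps16 (0.55) and Ppia (-0.77), among others. With slide and row as blocks the calls of Rps14, Uqcrh, Egfr, Cfd, Nkx2-5 and Rpl13a ended, among others.

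The lowest interactions came from genes that are not typical of muscle. Adipoq, the adipocyte hormone adiponectin, read -3.13, -2.20 and -1.40 in sham fl/fl, -0.51, -0.50 and 1.5 in MI fl/fl, -2.58, -0.48 and 0.01 in sham cKO and -3.33, -2.64 and -2.25 in MI cKO hearts. Its interaction was -4.14 ± 1.05 (95% interval -6.46 to -1.81; limma adjusted p = 0.214), and sham cKO hearts spread over more than 2 log2 units. Mup16 and Mup19, major urinary proteins of a family of near-identical genes whose probes may not be specific, had -4.88 ± 1.47 and -4.18 ± 1.24. MI fl/fl replicate 2 stood alone in each of the 3: Mup16 read 1.41 there and -1.68 and -1.85 in the other MI fl/fl arrays. Without that array the interactions were still past the limits, and with single arrays left out they ran from -4.92 to -3.47 for Adipoq and from -5.96 to -3.82 for Mup16. With slide as a block Mup16 (-3.74) and Mup19 (-3.18) were not past the limits. Mup15 was not well above background on any sham fl/fl array and was at least 12.6-fold brighter in MI fl/fl.

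Of the 4 named adipocyte transcripts, 3 were lower (Adipoq, Cfd and Scd1) and none was higher. The summed signal of the 3 named adipocyte markers was 0.738 to 1.01 in sham fl/fl, 0.639 to 1.54 in sham cKO, 1.26 to 3.57 in MI fl/fl and 0.556 to 0.682 in MI cKO hearts. The part of adipocyte content in these values was not tested. Cfd, the adipocyte protease adipsin, spread less, at -3.03, -2.63 and -2.37 in sham fl/fl, -2.47, -2.28 and -1.55 in MI fl/fl, -2.43, -2.34 and -2.28 in sham cKO and -3.04, -3.03 and -2.87 in MI cKO, for -1.21 ± 0.32. Ces1f, a liver carboxylesterase, had -1.54 ± 0.67, and lost its call without 8 of the 12 arrays in turn.

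Ank1, the membrane anchor ankyrin 1, was read by 2 transcript probes. NM_001277281 had 1.55 ± 0.43 and was past the limits under every alternative. NM_001110783 was well above background on no sham fl/fl array and on 1 sham cKO array, and was at least 1.26-fold brighter in MI fl/fl than in sham fl/fl hearts. Its call, of the lower kind, ended with quantile normalization, in the authors' values, with slide as a block, with either kind of array weights (-0.32 and -0.57), without any of 7 arrays in turn, and after normexp correction, where the value was -0.02. Of 24 genes with several named transcripts, 18 had interactions of 1 sign, and 3, Ank1 and Trim2 among them, had calls in both directions.

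Ube2j2, a ubiquitin-conjugating enzyme, and Nts, the neuropeptide neurotensin, were higher after MI in fl/fl hearts and lower in cKO hearts, without overlap. Ube2j2 read 0.34, 1.64 and 1.84 in sham fl/fl, 1.89, 1.99 and 2.14 in MI fl/fl, 1.37, 1.63 and 1.95 in sham cKO and 0.51, 0.90 and 1.05 in MI cKO hearts, for -1.57 ± 0.47. Nts had MI differences of 0.64 in fl/fl and -0.87 in cKO, for -1.51 ± 0.40. Neither was past the limits with slide and row as blocks.

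Ribosomal and respiratory chain genes had small, mostly negative values. Of 11 named cytosolic ribosomal protein transcripts, 7 were lower, 1 higher and 3 neither, with a median of -0.85. Rps14, of the small subunit, read 2.46, 3.26 and 3.44 in sham fl/fl, 3.41, 3.42 and 3.56 in MI fl/fl, 3.17, 3.49 and 3.49 in sham cKO and 2.29, 2.43 and 2.87 in MI cKO hearts, for -1.27 ± 0.34. MI cKO arrays were lower than all others but 1 sham fl/fl array. The exception of the list was Rps16 (0.82 ± 0.20). All 11 came from lists of the MI genotype difference, which fixes most of their direction. Rpl13a, the ribosomal probe named independently of values, stood at -0.87, and its call ended with slide and row as blocks. The housekeeping probe of Ppia, which is not ribosomal, was also past the limits downward.

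Of 12 named oxidative phosphorylation transcripts, 7 were lower and 0 higher, with a median of -0.74 and medians of 0.10 for the MI difference in fl/fl and -0.67 in cKO hearts. Uqcrh, of complex III, read 0.49, 0.98 and 1.15 in sham fl/fl, 0.82, 1.08 and 1.09 in MI fl/fl, 0.97, 1.2 and 1.23 in sham cKO and 0.12, 0.39 and 0.61 in MI cKO hearts, for -0.89 ± 0.26. The mitochondrial ribosome list had 4 lower, 1 higher (Mrps2) and 7 neither. All 12 oxidative phosphorylation transcripts also came from the MI genotype lists.

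Macrophage and leukocyte genes had more lower than higher calls. Of 29 transcripts, 13 were lower, 3 higher and 13 neither, with a median of -0.63. Of the 29, 9 came from the MI genotype lists and the rest from the lists of sham genotype or fl/fl MI differences. The choice of those lists also fixes the sign of a call, so the excess of lower calls says little about the interaction. The list had median MI differences of 0.53 in fl/fl and -0.05 in cKO hearts and was 0.64 higher in sham cKO than in sham fl/fl hearts. Lyz2, lysozyme of macrophages and neutrophils, read 3.35, 3.85 and 4.37 in sham fl/fl, 4.41, 4.60 and 4.72 in MI fl/fl, 4.54, 4.73 and 5.06 in sham cKO and 4.08, 4.61 and 4.70 in MI cKO hearts, for -1.04 ± 0.36. Sham fl/fl had the lowest mean, and sham cKO the highest. The other lower members included Ms4a7, Slamf9, Cd86, Ccl12 and Klrk1. The higher ones were Il2ra (0.90), Foxp3 (0.72) and Cd69 (0.59), while Cd4 (0.81) and Cd6 (0.19) of the same list were not past the limits. The summed signal of the 6 named leukocyte markers was 26.3 to 39.4 in sham fl/fl, 43.6 to 64.1 in sham cKO, 41.9 to 46.4 in MI fl/fl and 42.8 to 60.4 in MI cKO hearts, and the part of cell number was not tested.

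Counts in the signalling, transcription and metabolic lists, like those of the lists above, are read beside those of all 892 named transcripts. Of the 892, 26.7% were higher and 20.2% lower. Of 21 PI3K, Ras and MAPK transcripts, 11 were higher and 5 lower, with a median of 0.65, and 18 of the 21 came from the MI genotype lists. Egfr, the epidermal growth factor receptor, read 1.26, 1.42 and 2.33 in sham fl/fl, 0.75, 1.14 and 1.26 in MI fl/fl, 1.57, 1.78 and 1.88 in sham cKO and 1.93, 2.52 and 2.55 in MI cKO hearts, for 1.21 ± 0.39. MI cKO arrays lay above sham cKO arrays, and MI fl/fl arrays at or below sham fl/fl arrays. Pik3r1, the regulatory subunit of PI3K, was well above background on no MI fl/fl array and at least 1.32-fold brighter in sham fl/fl. Of the 9 Wnt transcripts 5 were higher (Sost, Dvl1, Bcl9, Wnt5a and Wnt1) and Cthrc1 lower. Dvl1 and Wnt5a were well above background on no MI fl/fl array and at least 1.04-fold and 1.18-fold brighter in sham fl/fl. Of the 9, 4 came from the MI genotype lists. The median of the list was 0.84, and 0.49 with slide as a block. For Hsp90ab1, a chaperone of the same signalling list, the key-named probe had 1.08 ± 0.48, and the housekeeping probe of the same accession had 0.33 ± 0.27.

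Of 18 transcription factor transcripts, 6 were higher and 3 lower, and 15 came from the MI genotype lists. The higher ones included Nkx2-5, Gata2 (1.05), Tead1 (0.80) and Nfatc1 (0.83), and the lower ones were Snai2 (-0.62), Runx2 (-0.93) and Runx3 (-0.95). Of 20 fuel use transcripts, 6 were higher, among them Pdk4, Txnip (1.07), Ucp3 (0.79) and Hk1 (0.68), and 1 was lower, with a median of 0.22, and 17 came from the MI genotype lists. The transcription factor, fuel use and ion channel counts of higher transcripts were near the share among all named ones. Of 25 ion channel and calcium handling transcripts, 7 were higher and 2 lower, with a median of 0.50, and of 24 sarcomere transcripts 7 were higher and 5 lower, with a median of -0.21. Tnnt3, skeletal troponin T and among the lower ones, was at least 3.17-fold brighter in MI fl/fl than in sham fl/fl hearts, where no array read it well above background. The TGF-beta list had 1 higher (Gdf15) and 1 lower (Snai2) of 7.

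**Figure D4:**
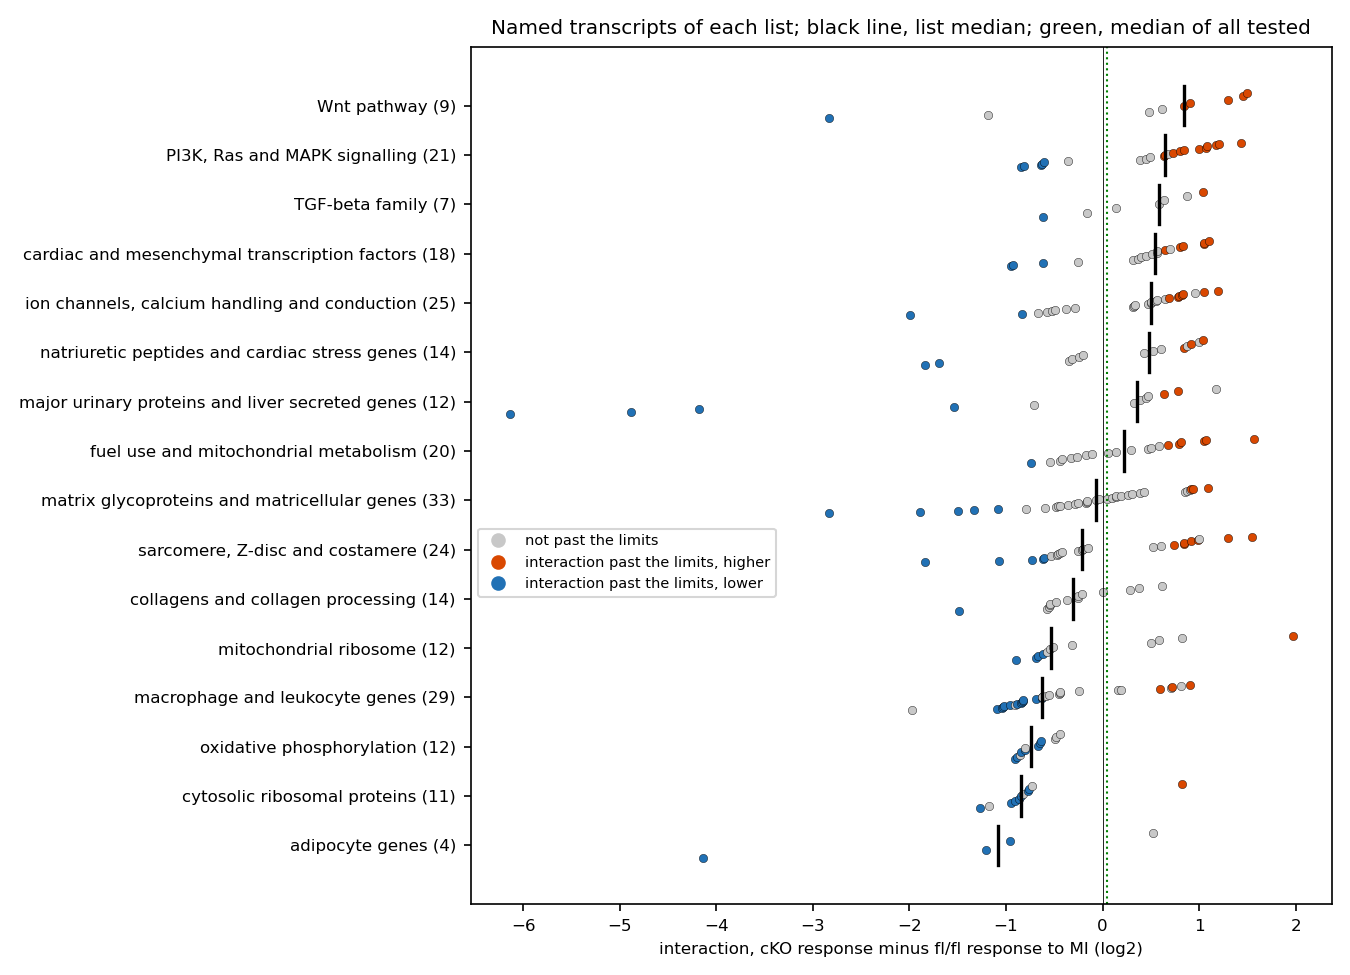
Interaction (log2, horizontal) of each named transcript in 16 gene lists (vertical, number of transcripts in brackets); orange and blue points are past the limits upward and downward, black lines list medians, the green line the median of all transcripts tested (0.05). Medians run from -1.08 for adipocyte genes and -0.85 for cytosolic ribosomal proteins to 0.84 for the Wnt pathway.

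The array also reads long noncoding RNAs. Of 1462 probes labelled as lincRNA, 36 were higher (2.46%) and 26 lower (1.78%), with a median interaction of 0.07, against 4.40% and 2.46% of all transcripts tested. By their probe names 872 of these are human lincRNA probes, and of the other 590, 14 were higher (2.37%) and 7 lower (1.19%). The difference in share was not tested.

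**Figure D5:**
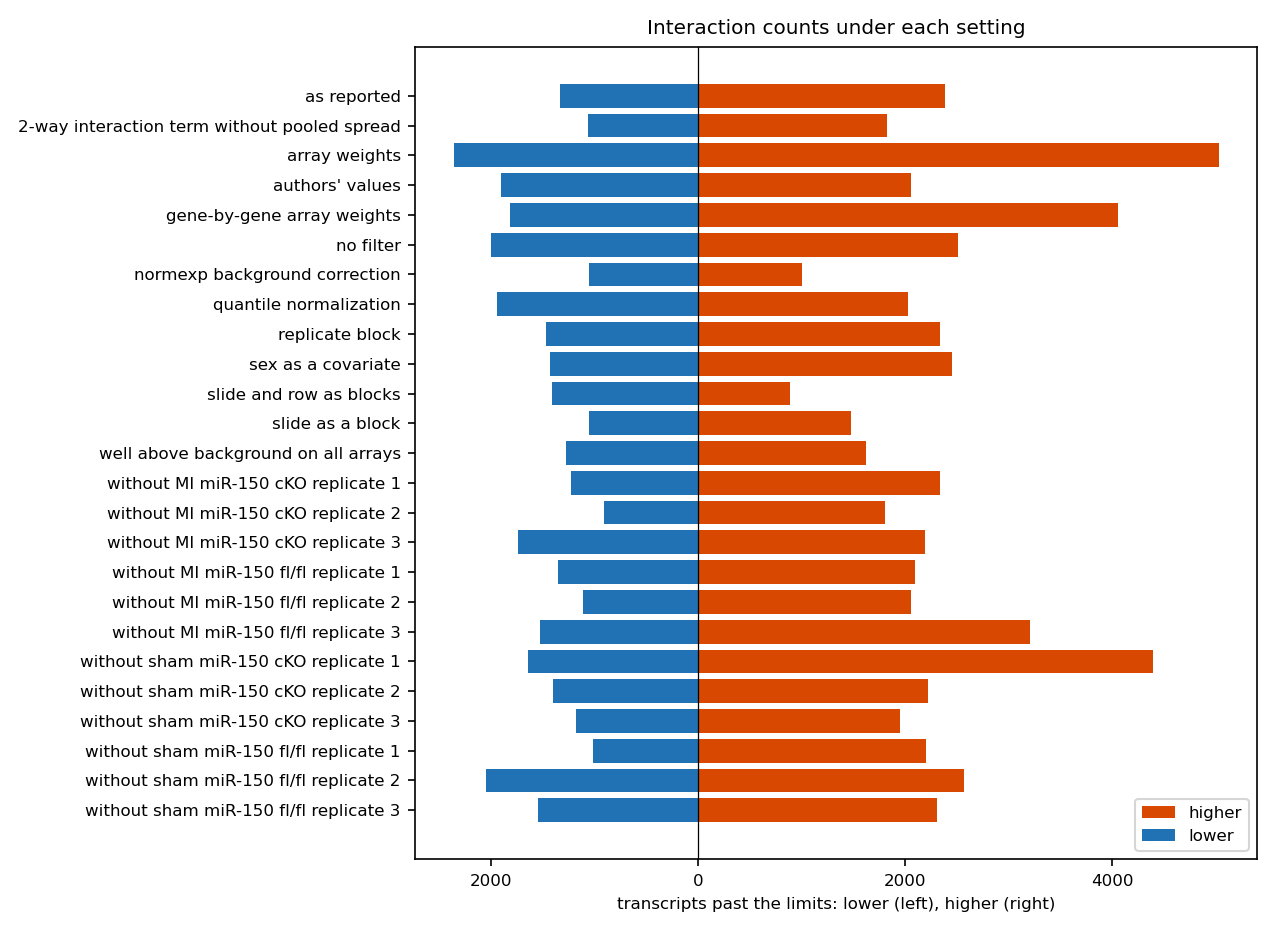
Number of transcripts past the limits upward (right, orange) and downward (left, blue) as reported (2386 and 1334) and under 24 other settings, 12 of which leave out 1 array. Leaving out sham cKO replicate 1 gives the highest upward count of the 12, 4400. Slide and row as blocks reverses the balance to 893 upward and 1409 downward, and normexp background correction to 1003 and 1057.

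Single arrays moved the counts. Without sham cKO replicate 1, the array of its group with the most probes well above background, 4400 transcripts were higher, 1644 lower and 66 had an adjusted p under 0.05. Without MI cKO replicate 2 the counts were 1811 and 905, and without sham fl/fl replicate 2 they were 2569 and 2053.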

How the data were processed

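Left ventricle RNA, depleted of ribosomal RNA, was read on 12 single-colour Agilent arrays. Per the file headers, the deposited intensity values are the processed signals of Agilent Feature Extraction 11.0.1.1 (design build mm9), background-corrected by that software. The authors' deposited log2 table was used as an alternative. Here, log2 intensity less each array's 75th percentile was fitted with limma 3.58.1 in R 4.3.3 as 4 group means, keeping probes that 3 or more arrays read well above background. Control spots and 435 flagged spots (0.0593%) were left out, and no spot was saturated. Intervals are at 95%, and precision is limited by 3 arrays a group.

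Names came from the study's lists of changed transcripts, used only as a key: all 963 entries matched 1 probe each by fold and p-value (relative tolerance 2e-05), and the values of those lists are not printed. They hold fold changes over 2-fold and p-values of 3 comparisons. Named genes were the 10 highest and 10 lowest named transcripts past the limits that 2 or 3 arrays of every group read well above background, 14 genes of the study, list members, and the 2 highest and 2 lowest unnamed probes. The values of 1 gene are not reported here, though its transcripts stay in the counts. Members and lists were chosen with earlier results of these data known. The fit was tested on simulated data. Replicate numbers of the labels did not pair the samples (correlation of deviations for the same number -0.27 to 0.27, median 0.04 over 18 pairs).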

Additional observations from a re-analysis of the deposited data

Results flagged for a closer look

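Among the transcripts named by rule and past the limits and reported here, 6 had arrays that moved in opposite directions in the 2 genotypes, with no overlap between MI and sham in either, and the interaction test bears on the difference itself, at an unadjusted p only. The interaction was -1.57 for Ube2j2 and -1.51 for Nts. The remaining 4 were probes without a name. ASMM10P056196 (3.11 ± 0.65, SE) and ASMM10P056197 (2.85 ± 0.63) had MI differences of -1.58 and -1.49 in fl/fl hearts and of 1.53 and 1.36 in cKO hearts, and both were past the limits under every alternative. ASMM10P003595 had -2.19 ± 0.78 and ASMM10P037085 had -3.07 ± 1.06, and neither was past the limits with slide as a block. In the last, MI fl/fl replicate 1 (-0.73) stood apart from -3.55 and -3.39. No test for outlying samples was run on groups of 3 arrays, though each array was left out in turn. The gene behind these 4 probes was not identified here.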

How the results depend on the processing

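Each result was recomputed under 24 settings. The counts of higher, lower and adjusted transcripts were 2386, 1334 and 0 as reported. Quantile normalization gave 2033, 1941 and 0, the authors' values 2058, 1905 and 0, normexp background correction 1003, 1057 and 1, no filter 2508, 2002 and 5, and well above background on all arrays 1627, 1278 and 0. The 2-way interaction term without pooled spread gave 1827, 1064 and 0, and sex as a covariate 2459, 1431 and 0. Slide as a block gave 1481, 1054 and 22, and slide and row as blocks 893, 1409 and 11. Array weights gave 5032, 2363 and 6164, but their REML estimate did not converge and gave sham fl/fl replicate 3 a weight of 36.13. Gene-by-gene array weights, chosen after seeing the data, gave 4063, 1820 and 843. The fit with replicate number as a block gave 2343, 1471 and 0, and the numbers do not pair the samples. Without 1 array the counts ran from 1811 to 4400 higher, 905 to 2053 lower and 0 to 66 adjusted, and the highest counts of higher and adjusted transcripts came without sham cKO replicate 1. Without MI fl/fl replicate 3 there were 3212 higher, and without sham fl/fl replicate 2 there were 2053 lower.

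Of the transcripts named by rule, the sign turned for Nppa (array weights 0.45, gene-by-gene weights 0.20, without sham cKO replicate 2 0.03), Sprr1a (0.24, 0.08, without sham cKO replicate 1 0.05), Comp (without MI cKO replicate 1 0.01, sham cKO replicate 1 0.21, MI fl/fl replicate 3 0.03) and Col1a1 (without MI cKO replicate 2 -0.09). With single arrays left out these ran from -0.74 to 0.03, -0.75 to 0.05, -0.55 to 0.21 and -0.09 to 0.67. None of these was past the limits in either case, and the cause was not tested. Over these transcripts, 712 of the recomputed values kept sign and side of the limits, 84 kept the sign only, 4 moved past the limits (Myh7 with either kind of weights and without sham fl/fl replicate 1, Ctgf without sham fl/fl replicate 3) and 10 turned sign. The 3 arrays a group and the single MI fl/fl array shared with the MI cKO slide limit every value.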
